A study of Mus musculus with 9 samples.

Results

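Heme oxygenase and iron handling were followed through 8 genes, Hmox1, Fth1, Ftl1, Slc40a1, Tfrc, Cp, Slc11a1 and Lcn2, chosen by name from the 23747 genes of the tables, and all 8 were tested in the sum of all nuclei and in each of the 4 main cell types. The data were single-nucleus RNA-seq profiles of hearts from 9 C57BL/6 mice, 1 library per mouse and 3 mice per group. The mice were 8 weeks old when supplied, before a week of acclimatization and the gavage. In the sham group a needle was passed under the left anterior descending coronary artery with no ligation. In the I/R group the artery was tied for 30 min and reperfused for 24 h. In the SBP group Shexiang Baoxin Pill (MUSKARDIA in the labels) was given by gavage over 7 days, and the heart then went through the same ligation and reperfusion. Sham and I/R mice received the vehicle by gavage. The tissue was taken from below the ligation, so that the values describe the injured region at 1 time point and not the whole organ. No group received the pill without the injury.

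Heme oxygenase 1 opens the heme ring and sets its iron free, and ferritin, a shell of heavy and light chains, stores that iron in a form that does not react. Iron enters most cells with transferrin through the transferrin receptor, and leaves through ferroportin, helped by ceruloplasmin, which oxidises it. Macrophages take up dying cells and red cells and so carry much of the body's heme and iron traffic, while lipocalin 2 binds the iron carriers of bacteria and the natural resistance-associated transporter moves metal ions out of the phagosome.

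The nuclei numbered 49171 in all, 4576 to 6418 per mouse, with 10329520 to 18205984 UMIs per library and a median of 1540 to 2031 UMIs per nucleus. After clustering, 49086 nuclei were kept, of which 14112 were fibroblast-like, 13454 endothelial-like, 10553 cardiomyocyte-like, 9566 myeloid-like, 772 T cell-like, 336 B cell-like and 293 smooth muscle- or pericyte-like. The myeloid share was 8.50% to 14.4% in sham mice, 18.2% to 35.9% in I/R mice and 13.0% to 28.3% in SBP mice. A pair of I/R libraries stood apart in their makeup. I/R mouse 1 held 863 nuclei of the cardiomyocyte cluster with low Ankrd1 against 1 and 61 in the other I/R mice. It also held 1015 of the 1218 nuclei of a myeloid subcluster led by Ccr2 and Ms4a7. The markers gave that subcluster the name injury macrophage, as they did the separate subcluster called Gpnmb macrophage-like below. I/R mouse 2 held 616 of the 1242 monocyte-like nuclei and 1 nucleus of the Hpgd macrophage-like subcluster. Other libraries were uneven as well. SBP mouse 2 held 138 nuclei of the subcluster led by Ccr2 and Ms4a7, against 4 and 19 in SBP mice 1 and 3. I/R mice 2 and 3 held 409 and 447 Hif3a/Vsig4 macrophage-like nuclei, against 10 in I/R mouse 1. The calls of I/R against sham were fitted again without I/R mouse 1 and without I/R mouse 2, and the losses among the genes named are given beside them. Of the refits of uncalled member results without 1 mouse, 793 stayed the same, 29 changed sign without a call and 18 gained a call. Gains named below for a mouse left out are among these 18. Calls of SBP against sham within clusters were not refitted without single mice. Levels are the UMIs of a gene in a sum of nuclei, scaled to the total of that sum (CPM), and the fold changes are limma estimates on log2(CPM + 1). A gene was called when its Benjamini-Hochberg adjusted p over all genes of that sum was at most 0.05 with a log2 fold change beyond 0.25 in size.

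The promoters of the ferritin genes are shown because both chains of ferritin rose in the whole heart and in myeloid nuclei of I/R mice. Of the 8 genes, 6 had a window in the table of RefSeq promoters used here (GRCm38.p6), with 9 start sites among them, and Hmox1 and Slc40a1 were not in that table. The 250 bases upstream of the Ftl1 start (chr7:45459887-45460136, minus strand) and of the downstream start of Fth1 (chr19:9982396-9982645, plus strand) read as follows, 5′ to 3′, with the CCAAT box, found in both on the opposite strand as ATTGG, in capitals.
Ftl1: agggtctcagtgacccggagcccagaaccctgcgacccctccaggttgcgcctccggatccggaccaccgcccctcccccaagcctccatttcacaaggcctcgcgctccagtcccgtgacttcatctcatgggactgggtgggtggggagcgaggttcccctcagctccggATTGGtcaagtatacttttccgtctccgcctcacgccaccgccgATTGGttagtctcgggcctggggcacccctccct
Fth1: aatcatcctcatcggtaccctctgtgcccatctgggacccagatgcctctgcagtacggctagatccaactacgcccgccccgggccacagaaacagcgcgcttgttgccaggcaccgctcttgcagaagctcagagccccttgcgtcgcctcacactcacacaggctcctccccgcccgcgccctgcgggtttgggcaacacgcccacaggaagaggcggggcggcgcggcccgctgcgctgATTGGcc
The CCAAT box had 2 matches in the Ftl1 window, 1 in that of the downstream Fth1 start and 0 in that of the upstream Fth1 start, and 33.8% of the 32536 distinct promoter windows of this length hold it. The core of the antioxidant response element, TGACNNNGC, was in 0 of the 9 member windows and in 10.2% of all windows. All motifs were searched on both strands, and no match says only that these letters are not in the window.

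Hmox1 (ENSMUSG00000005413, chr8:75093618-75100593, plus strand) encodes the inducible heme oxygenase. In the sum of all nuclei of a heart its level was 1.66, 2.68 and 2.58 CPM in the sham mice, 112, 42.4 and 34.3 CPM in the I/R mice, and 24.3, 23.2 and 22.9 CPM in the SBP mice. No I/R or SBP mouse came near the sham level, and the SBP mice all lay below the I/R mice. The group means were 2.31 ± 0.561, 63.0 ± 43.0 and 23.4 ± 0.745 CPM (SD, n = 3 each), the wide spread of I/R being due to the single value of mouse 1. Against sham, Hmox1 was 4.09 higher on the log2 scale in I/R hearts (95% interval 3.28 to 4.90, limma adjusted p = 0.000557) and 2.90 higher in SBP hearts (limma adjusted p = 0.00628). In such sums of all nuclei, more cells of a type and more RNA per cell cannot be told apart.

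Within myeloid-like nuclei Hmox1 was at 16.0, 15.4 and 16.0 CPM in sham, 343, 115 and 157 CPM in I/R and 117, 88.3 and 132 CPM in SBP mice. The sham values were nearly equal and all injured mice exceeded them. The increase was 3.46 in I/R (SE 0.33, limma adjusted p = 0.000117) and 2.74 in SBP (limma adjusted p = 0.000587). In fibroblast-like nuclei the level went from 0.888, 2.51 and 3.10 CPM in sham to 42.8, 28.1 and 19.2 CPM in I/R and 16.9, 10.4 and 10.0 CPM in SBP, an increase of 3.30 (SE 0.36, limma adjusted p = 0.000237) and 2.12 (limma adjusted p = 0.00480). Endothelial-like nuclei had 1.68, 1.61 and 2.44 CPM in sham, 77.3, 29.9 and 18.2 CPM in I/R and 7.49, 13.3 and 13.7 CPM in SBP. Cardiomyocyte-like nuclei had 0.189, 0.865 and 0.302 CPM, 21.7, 18.4 and 13.7 CPM, and 17.1, 5.22 and 9.08 CPM. Both rises over sham were called in I/R, 3.64 in endothelial (limma adjusted p = 0.00259) and 3.71 in cardiomyocyte nuclei (limma adjusted p = 0.00329), and both in SBP, 2.07 (limma adjusted p = 0.0373) and 2.87 (limma adjusted p = 0.0184). The endothelial SBP call was kept in 10 of 19 alternatives and lost without any 1 of the sham or SBP mice (limma adjusted p = 0.0614 to 0.136) with a replicate block (limma adjusted p = 0.0890), with a pseudocount of 5 CPM (1.23, limma adjusted p = 0.137) and without trended robust variances (limma adjusted p = 0.0679). The cardiomyocyte SBP call was kept in 14 of 19, and lost without sham mouse 1 or 3 or SBP mouse 1 or 3 (limma adjusted p = 0.0652 to 0.0997) and with a pseudocount of 5 CPM (1.43, limma adjusted p = 0.0798). Without I/R mouse 1 the Hmox1 increase of I/R over sham stayed called in all 5 sums, at 3.58 in the whole heart, 3.57 in cardiomyocyte, 3.07 in endothelial, 2.99 in fibroblast and 3.01 in myeloid nuclei. Of the 4 main types the level over all 9 mice was highest in myeloid nuclei, at 111 ± 103 CPM, followed by endothelial, fibroblast and cardiomyocyte nuclei at 18.4 ± 23.9, 14.9 ± 13.7 and 9.62 ± 8.43 CPM (SD, n = 9, over groups that differ widely). Within sham the cardiomyocyte values lay below all endothelial values, and the endothelial and fibroblast values overlapped.

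The fibroblast-like nuclei of the groups differed in makeup, since the cluster led by Tnc held 2, 4 and 2 nuclei in sham, 466, 409 and 149 in I/R and 280, 304 and 171 in SBP mice. Within the other fibroblast cluster alone Hmox1 was 3.34 higher in I/R than in sham (limma adjusted p = 0.00202, 3.91% of genes called), with Ftl1 (1.59), Cp (1.42) and Slc11a1 (2.02) also called and Lcn2 not (3.17, limma adjusted p = 0.130). The calls of Cp (1.36, limma adjusted p = 0.0809) and Slc11a1 (1.85, limma adjusted p = 0.0617) in this cluster were lost without I/R mouse 2. The cardiomyocyte-like nuclei of the groups lay in different clusters. Those of sham were mainly in the cluster with low Ankrd1, and those of SBP and of I/R mice 2 and 3 in the cluster led by Ankrd1 and Myh7. In the Ankrd1/Myh7 cluster Hmox1 had 0 UMIs in the 83, 35 and 140 nuclei of the sham mice, which by a floor of 3 UMIs allows up to 9.01, 29.2 and 4.57 CPM, so that this comparison is weak in sham mouse 2. It was at 26.0, 19.4 and 14.2 CPM in I/R and 18.3, 5.29 and 9.53 CPM in SBP mice, and I/R against sham was called (4.34, limma adjusted p = 0.0399, 0.271% of genes called), but not without I/R mouse 2 (4.34, limma adjusted p = 0.357). In the low-Ankrd1 cluster Hmox1 was at 0.208, 0.905 and 0.329 CPM in sham and at 21.9 and 18.9 CPM in I/R mice 1 and 3 (3.88, limma adjusted p = 0.0467, 0.0163% of genes called). It was 3.79 without I/R mouse 1, which held 863 of these nuclei against 61, an effect size that rests on I/R mouse 3 alone.

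**Figure D1:**
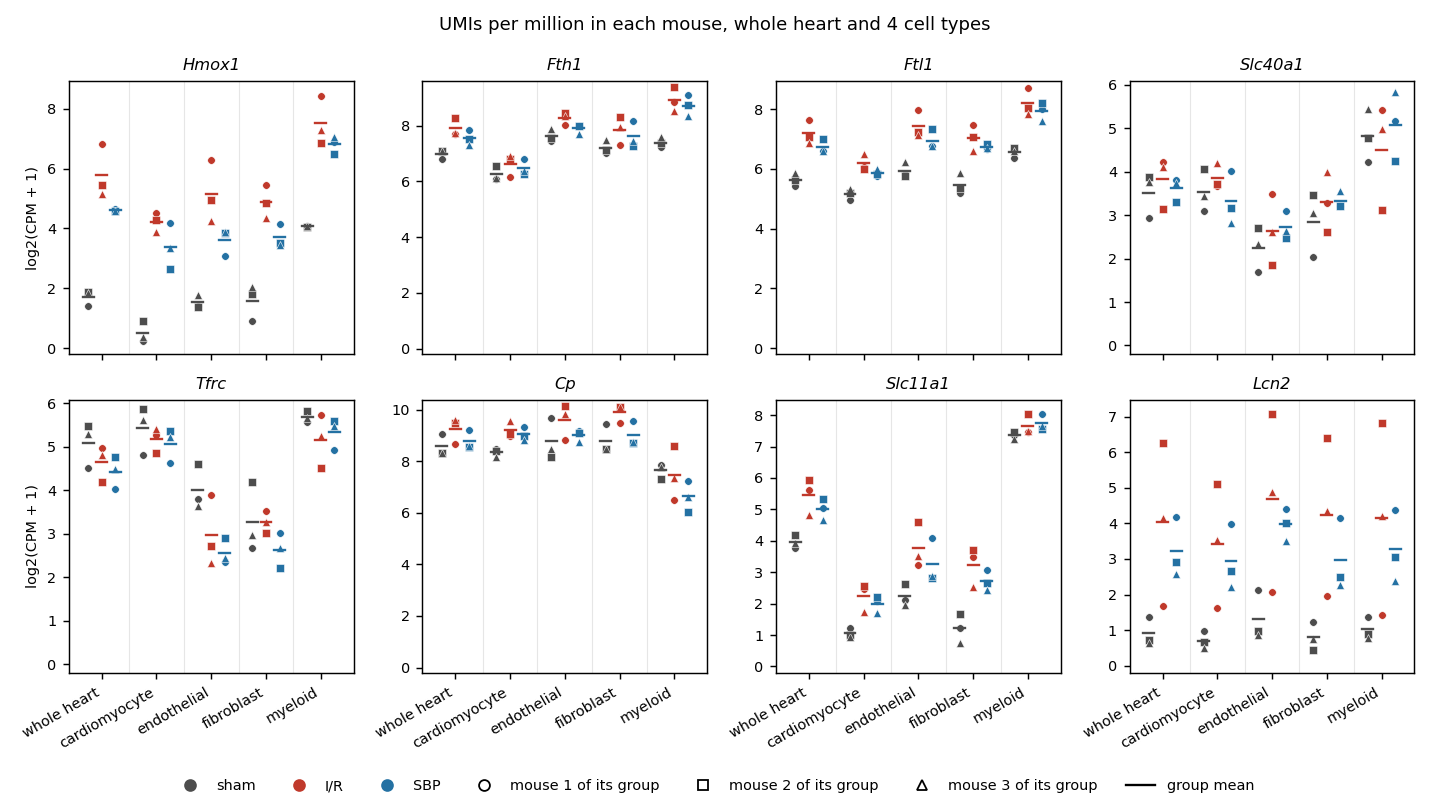
Level of each of the 8 genes as log2(CPM + 1) in every mouse, in the sum of all nuclei and in the sums of cardiomyocyte-, endothelial-, fibroblast- and myeloid-like nuclei, with sham, I/R and SBP mice as separate points. Hmox1 and Ftl1 stand above sham in all I/R and SBP mice of every sum, whereas the groups overlap for Slc40a1 in all 5.

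The pill was compared with I/R alone, which is the contrast that speaks to its effect after injury. The Hmox1 levels of all 3 SBP mice were below all 3 I/R mice in the whole heart (log2 fold change -1.19, SE 0.36, 95% interval -2.0 to -0.38), in endothelial nuclei (-1.57, SE 0.44) and in fibroblast nuclei (-1.17, SE 0.36). The groups overlapped in cardiomyocyte (-0.84) and myeloid nuclei (-0.72). None of these differences was called, with a limma adjusted p of 0.999 in the whole heart and 0.939 in endothelial nuclei. In this contrast 0 of the 8 members and 0% of all genes were called in every one of the 5 sums. At an unadjusted p under 0.05, 1 member passed in the whole heart, 1 in cardiomyocyte, 2 in endothelial, 2 in fibroblast and 1 in myeloid nuclei, beside 4.48%, 2.13%, 5.25%, 3.49% and 3.85% of all genes. Genes whose SBP and I/R mice did not overlap made up 8.43%, 5.60%, 9.56%, 8.38% and 9.05% of those tested in the same sums. The members without overlap were 1, 1, 2, 2 and 0, all lower in SBP, namely Hmox1 in the whole heart, endothelial and fibroblast nuclei, Ftl1 in cardiomyocyte nuclei (-0.33), Fth1 in endothelial nuclei (-0.37) and Tfrc in fibroblast nuclei (-0.64). Without I/R mouse 1 the Hmox1 difference shrank to -0.68 in the whole heart, -0.70 in cardiomyocyte, -1.0 in endothelial, -0.88 in fibroblast and -0.27 in myeloid nuclei. The contrasts of SBP with sham and with I/R share the SBP mice, and those of I/R and SBP with sham share the sham mice.

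The myeloid-like nuclei of the groups came from different subclusters. Sham nuclei were mostly of the Hpgd macrophage-like subcluster (1641 of 1874). I/R nuclei were spread over the Gpnmb macrophage-like subcluster (1027 of 4739), the subcluster led by Ccr2 and Ms4a7, the monocyte-like subcluster and others. SBP nuclei included Gpnmb macrophage-like (915 of 2953) and Hpgd macrophage-like nuclei (874). By SBP mouse the former were 133, 615 and 167 nuclei and the latter 212, 350 and 312, so Gpnmb nuclei outnumbered Hpgd nuclei only in mouse 2. Within the Hpgd macrophage-like nuclei alone, Hmox1 was at 16.3, 15.2 and 17.5 CPM in sham mice, at 111 and 89.4 CPM in I/R mice 1 and 3, and at 39.6, 36.9 and 35.0 CPM in SBP mice. All groups were apart, with I/R above SBP and SBP above sham. The increase of I/R over sham was 2.54 (SE 0.30, limma adjusted p = 0.00283), in a sum where 0.208% of genes were called, and it rests on 2 I/R mice, with 331 nuclei of mouse 1 and 59 of mouse 3. Without mouse 1 it was 2.38, which rests on mouse 3 alone. SBP was lower than I/R by a log2 fold change of -1.40, which was not called (limma adjusted p = 0.419). In the larger myeloid-like cluster led by Cd163 and Mrc1, where all 9 mice could be used, Hmox1 was 2.21 higher in I/R (limma adjusted p = 0.00221, 1.45% of genes called) and 1.52 higher in SBP than in sham (limma adjusted p = 0.0180, 1.43% of genes called). The makeup of this cluster differed between the groups. Hpgd nuclei made up 93.8% to 95.3% of it in sham mice and 63.3% to 89.9% in SBP mice, but 88.9%, 0.268% and 10.6% in I/R mice 1, 2 and 3, and Hif3a/Vsig4 nuclei made up 96.5% and 86.7% in I/R mice 2 and 3. The part of this makeup in the Hmox1 difference was not tested.

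Hmox1 reached its highest values in macrophage-like subclusters that were nearly empty in sham. Gpnmb macrophage-like nuclei, 0 in sham, had 720, 226 and 242 CPM in I/R and 183, 148 and 361 CPM in SBP mice. Fat3/Igf1 macrophage-like nuclei, of which sham mouse 2 held 2 and the other sham mice 0, had 804, 99.2 and 418 CPM in I/R and 555, 235 and 259 CPM in SBP mice. The I/R and SBP mice overlapped in both. Monocyte-like nuclei were at 129, 102 and 47.9 CPM in I/R and 18.4, 26.4 and 56.9 CPM in SBP mice. Neutrophil-like nuclei had 87.6, 92.9 and 23.3 CPM in I/R mice, values that rest on 2, 7 and 1 UMIs in 22, 84 and 47 nuclei.

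**Figure D2:**
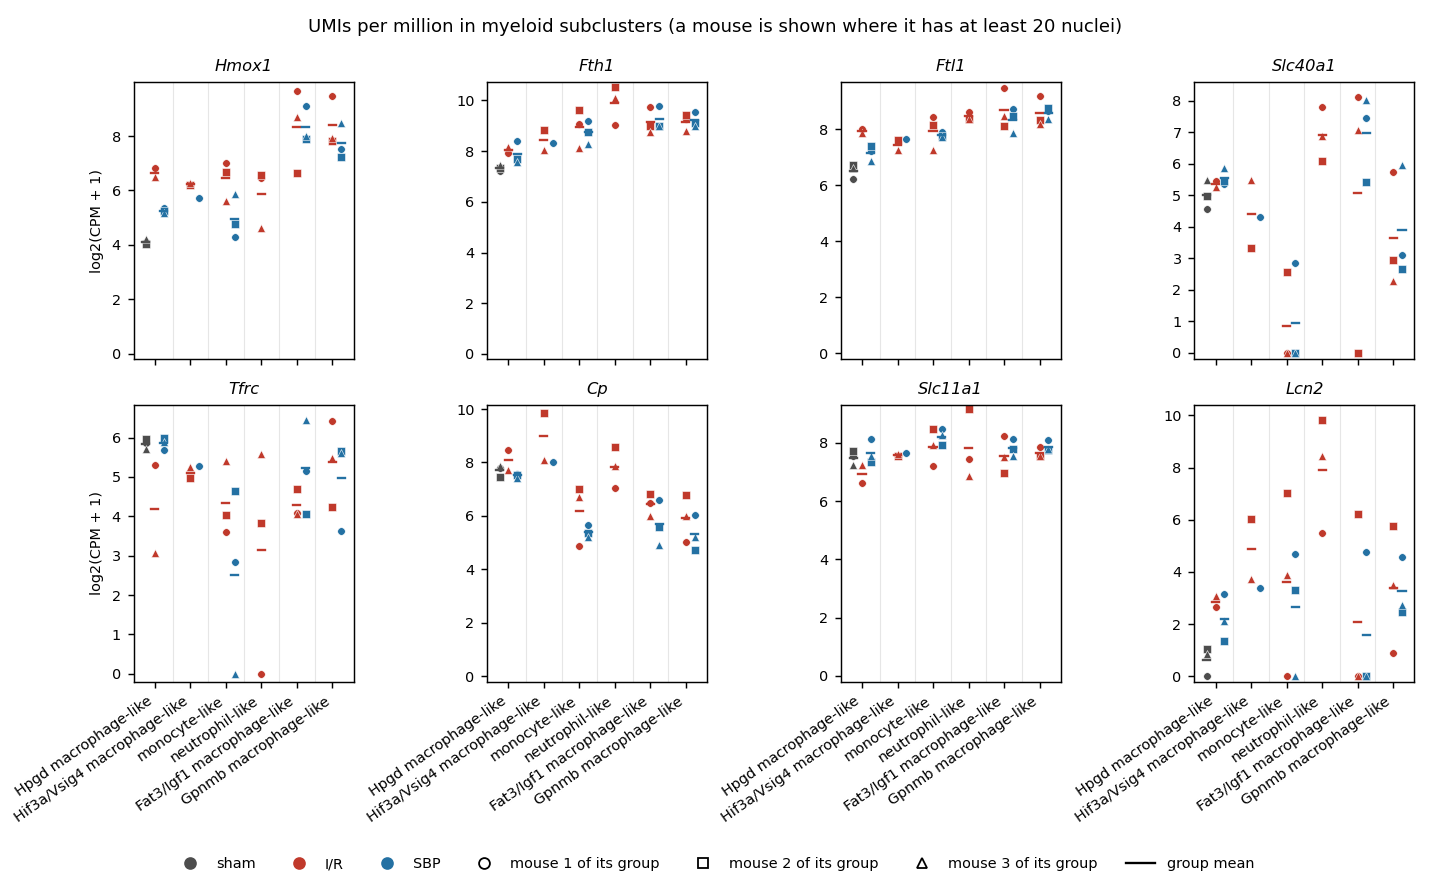
Level of the 8 genes as log2(CPM + 1) in 6 named myeloid subclusters, each point being 1 mouse with at least 20 nuclei of that subcluster and the colours the groups. Hmox1, Fth1 and Ftl1 are higher in the Gpnmb macrophage-like nuclei of I/R and SBP mice than in the Hpgd macrophage-like nuclei of sham mice, and Lcn2 is highest in neutrophil-like nuclei.

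The share of nuclei with at least 1 Hmox1 UMI was compared after thinning each nucleus to 1000 UMIs. It was 1.64% ± 0.18 of sham, 11.7% ± 4.46 of I/R and 6.65% ± 0.629 of SBP myeloid-like nuclei (means ± SD over 3 mice each, 2.55%, 18.3% and 10.8% before thinning), at a median depth of 1368 to 1916 UMIs. T cell-like nuclei were taken for background, and whether they make Hmox1 themselves was not tested. Their share was 0%, 5.65% ± 6.01 and 1.15% ± 1.63 (0.632%, 5.91% and 2.84% before thinning), at a median depth of 827 to 1271 UMIs. The 0 of 137 sham T cell-like nuclei allow a share of up to 2.19%, by counting error only. In cardiomyocyte, endothelial and fibroblast nuclei the I/R shares were 2.17%, 4.05% and 3.23% (8.71%, 6.28% and 6.96% before thinning), all with a mean below that of the T cells, so that this measure does not set them apart from background. The SBP shares were 1.20%, 1.10% and 1.31%, close to the 1.15% of the T cells. The T cell share of I/R was 12.0%, 0% and 4.98% in the 3 mice and rests largely on mouse 1, with 23 Hmox1 UMIs in 206 T cell-like nuclei against 1 and 2 UMIs in the 47 and 45 nuclei of the other mice. The depth of the cardiomyocyte-like nuclei was larger, at medians of 3174 to 5713 UMIs.

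Myeloid marker transcripts were also counted in the other cell types. The summed level of the 12 myeloid markers in cardiomyocyte nuclei was 56.4 to 66.4 CPM in sham, 93.3 to 205 CPM in I/R and 76.6 to 105 CPM in SBP. In endothelial nuclei it was 206 to 281, 428 to 692 and 275 to 390 CPM, and in fibroblast nuclei 284 to 576, 413 to 897 and 347 to 540 CPM, with 0 of the 12 at 0. The I/R range lay above the sham range in cardiomyocyte and endothelial nuclei and overlapped it in fibroblast nuclei. Per 1000 myeloid marker UMIs, I/R nuclei held 121 Hmox1 UMIs in the cardiomyocyte, 68.8 in the endothelial, 45.2 in the fibroblast and 38.8 in the myeloid sum. In sham these ratios were 7.56, 8.48, 5.43 and 2.90, and in SBP 107, 33.0, 27.0 and 20.9. They pool the UMIs of all mice of a group and were not taken for each mouse, so their order across types may depend on single mice. The part of free myeloid RNA in the Hmox1 values of the other types was not tested.

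**Figure D3:**
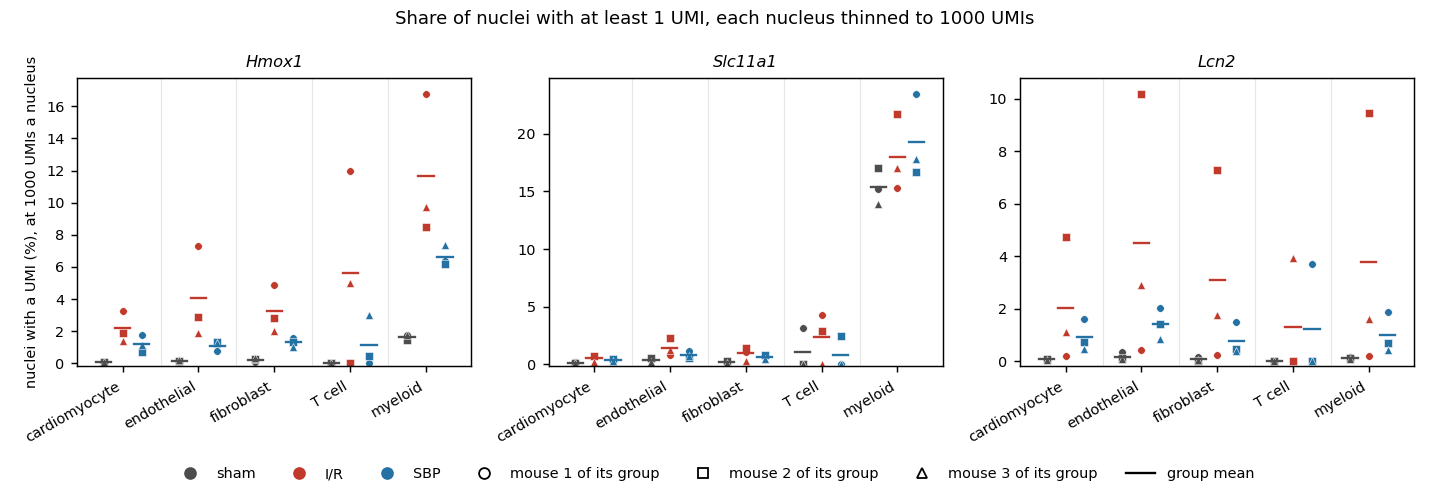
Share of nuclei with at least 1 UMI of Hmox1, Slc11a1 or Lcn2 after thinning to 1000 UMIs, by cell type, with a point per mouse and the T cell-like nuclei as the type taken for background. In the group means myeloid nuclei stand above T cells for Hmox1 and Slc11a1, while the mean Hmox1 shares of the cardiomyocyte, endothelial and fibroblast nuclei in I/R lie below the T cell mean of 5.65%, itself set by 1 mouse.

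Both ferritin chains rose in myeloid nuclei. Ftl1 (ENSMUSG00000050708, chr7:45457944-45459886, minus strand), the light chain, was at 42.1, 48.3 and 56.8 CPM in sham, 197, 133 and 117 CPM in I/R and 96.3, 127 and 94.9 CPM in SBP hearts. The I/R and SBP mice were all above the sham mice and overlapped each other. Against sham the increase was 1.56 in I/R (95% interval 1.09 to 2.02, limma adjusted p = 0.00401) and 1.10 in SBP (limma adjusted p = 0.0311). The SBP call was kept in 11 of 18 alternatives and lost without any 1 of the sham or SBP mice, at 0.96 to 1.21 with a limma adjusted p of 0.0628 to 0.105, and with a replicate block (limma adjusted p = 0.0664). In cardiomyocyte nuclei Ftl1 went from 30.1, 35.5 and 38.8 CPM in sham to 66.7, 63.4 and 89.0 CPM in I/R, and in endothelial nuclei from 56.6, 53.1 and 74.5 to 250, 152 and 138 CPM. In fibroblast nuclei it went from 35.9, 39.8 and 56.8 to 175, 133 and 96.9 CPM and in myeloid nuclei from 81.7, 104 and 95.8 to 418, 265 and 227 CPM. Every I/R mouse exceeded every sham mouse in each type. The increases of 1.04, 1.5, 1.58 and 1.64 were all called (limma adjusted p = 0.0229, 0.00894, 0.000906 and 0.000598). The cardiomyocyte call was lost without I/R mouse 2, without any 1 of the sham mice and in the 6 mice alone (limma adjusted p = 0.0594), and the endothelial call without sham mouse 2 (limma adjusted p = 0.0543). SBP against sham was called in fibroblast (1.26) and myeloid nuclei (1.38, limma adjusted p = 0.00537 and 0.00226), with 1.00 in endothelial nuclei (limma adjusted p = 0.0561). In cardiomyocyte nuclei all SBP mice, at 53.5 to 62.6 CPM, were below all I/R mice (-0.33), which was not called.

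Fth1 (ENSMUSG00000024661, chr19:9980600-9985111, plus strand), the heavy chain with the ferroxidase site, had 112, 136 and 135 CPM in sham, 206, 308 and 214 CPM in I/R and 230, 184 and 156 CPM in SBP hearts. Its rise of 0.91 in I/R was called (95% interval 0.48 to 1.34, limma adjusted p = 0.0189), and was 0.72 with a limma adjusted p of 0.0583 without I/R mouse 2, the call being lost also without sham mouse 1 or sham mouse 3. In myeloid nuclei Fth1 was at 149, 164 and 190 CPM in sham, 459, 671 and 366 CPM in I/R and 541, 423 and 320 CPM in SBP. The injured mice were all above sham and overlapped each other, with increases of 1.53 (SE 0.23, limma adjusted p = 0.00126) and 1.32 (limma adjusted p = 0.00363). In endothelial nuclei the I/R levels of 256, 352 and 323 CPM were all above the sham levels of 175, 189 and 235 CPM without a call (0.63, limma adjusted p = 0.0531). The difference was called without I/R mouse 1 (0.76, limma adjusted p = 0.0274). Fibroblast (0.64) and cardiomyocyte nuclei (0.37) were not called, and in cardiomyocyte nuclei the I/R mice at 70.1 to 119 CPM overlapped the sham mice at 67.5 to 92.4 CPM.

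Among myeloid subclusters, Gpnmb macrophage-like nuclei had Fth1 at 614, 681 and 442 CPM in I/R and 737, 554 and 509 CPM in SBP. Their Ftl1 was at 581, 321 and 291 CPM in I/R and 405, 427 and 330 CPM in SBP. Fth1 in neutrophil-like nuclei was at 526, 1473 and 1097 CPM in I/R mice, above the Gpnmb macrophage-like nuclei of the same mouse in mice 2 and 3 and below them in mouse 1. In Hpgd macrophage-like nuclei Ftl1 was at 73.6, 103 and 97.7 CPM in sham, 258 and 231 CPM in I/R and 148, 167 and 117 CPM in SBP mice. The increase of I/R over sham was called (1.42, limma adjusted p = 0.0288) with I/R mice 1 and 3. Without mouse 1 it was 1.34, which rests on mouse 3 alone. Among endothelial clusters, Ftl1 was called in the Flt1/Kdr (1.69), the Npr3 (1.38) and the Reln/Mmrn1 cluster (2.04), and Fth1 in the Flt1/Kdr cluster (0.59) and in the cluster with arterial genes (1.74), beside 4.52%, 0.572%, 3.39% and 2.36% of genes called in these clusters. Hmox1 was also called in the Flt1/Kdr (3.53) and Npr3 clusters (3.76), and Lcn2 in the Flt1/Kdr cluster (3.89). The calls of Ftl1 in the Npr3 cluster (1.43, limma adjusted p = 0.0693) and of Fth1 in the Flt1/Kdr (0.49, limma adjusted p = 0.188) and arterial clusters (1.685, limma adjusted p = 0.105) were lost without I/R mouse 2. So were those of Hmox1 in the Npr3 cluster (3.82, limma adjusted p = 0.0693) and of Lcn2 in the Flt1/Kdr cluster (2.71, limma adjusted p = 0.0673). The Ftl1 gene lies over other annotated transcripts. Both ferritin genes have copies elsewhere in the annotation. Of these Ftl1-ps1, which is typed there as protein-coding, is in the tables with 68, 285 and 137 UMIs in sham, I/R and SBP, so the split of reads among copies is uncertain.

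Slc40a1 (ENSMUSG00000025993, chr1:45908070-45926532, minus strand), ferroportin, the iron exporter, was at 6.65, 13.6 and 12.5 CPM in sham, 17.7, 7.77 and 16.4 CPM in I/R and 13.1, 8.94 and 12.3 CPM in SBP hearts. All groups overlapped. The difference of I/R from sham was 0.31 (95% interval -0.43 to 1.04, limma adjusted p = 0.581) in the whole heart and -0.31 (-1.72 to 1.09) in myeloid nuclei, intervals that do not exclude a change of either sign. Slc40a1 was 30.7 ± 15 CPM in myeloid nuclei over the 9 mice, against 11.5 ± 3.95 in cardiomyocyte, 8.47 ± 3.36 in fibroblast and 5.21 ± 2.42 CPM in endothelial nuclei (SD, n = 9). Within myeloid nuclei it was uneven, and the 8 members had been left out of the genes used to make the clusters. Hpgd macrophage-like nuclei had 22.5, 30.5 and 43.4 CPM in sham and 39.6, 43.0 and 56.7 CPM in SBP. Fat3/Igf1 macrophage-like nuclei had 273, 0 and 134 CPM in I/R and 174, 41.8 and 259 CPM in SBP, where the 0 of I/R mouse 2 rests on 24 nuclei and by a floor of 3 UMIs allows up to 39.7 CPM. Monocyte-like nuclei had 7 Slc40a1 UMIs in all, 6 of them in I/R mouse 2 (4.84 CPM) and 1 in SBP mouse 1 (6.13 CPM). The zeros allow up to 17.4 and 21.5 CPM in I/R mice 1 and 3 and 6.37 and 15.9 CPM in SBP mice 2 and 3. Gpnmb macrophage-like nuclei, where Hmox1 and both ferritin chains were high, had Slc40a1 at 52.0, 6.65 and 3.84 CPM in I/R and 7.64, 5.23 and 61.6 CPM in SBP.

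Tfrc (ENSMUSG00000022797, chr16:32608896-32632794, plus strand), the transferrin receptor, was at 21.8, 43.5 and 38.3 CPM in sham, 30.4, 17.4 and 27.0 CPM in I/R and 15.3, 26.1 and 21.4 CPM in SBP hearts, with overlap of all groups and no call (-0.43 for I/R against sham). Its level over the 9 mice was 42.7 ± 11.2 CPM in myeloid, 37.9 ± 10.8 CPM in cardiomyocyte, 9.58 ± 6.51 CPM in endothelial and 7.96 ± 3.99 CPM in fibroblast nuclei (SD, n = 9). Within sham the myeloid and cardiomyocyte values overlapped, as did the endothelial and fibroblast values. In endothelial nuclei it was 12.9, 23.5 and 11.4 CPM in sham, 13.8, 5.63 and 3.99 CPM in I/R and 4.12, 6.43 and 4.43 CPM in SBP. All SBP mice were below all sham mice, and I/R mouse 1 lay within the sham range. The differences of -1.45 for SBP (limma adjusted p = 0.0971) and -1.03 for I/R (limma adjusted p = 0.200) were not called. That of I/R was -1.49 without I/R mouse 1 and was called (limma adjusted p = 0.0435). Such gains numbered 18 among the refits of uncalled member results without 1 mouse, against 793 that stayed the same. In the Flt1/Kdr cluster Tfrc fell from 22.4, 27.1 and 13.2 CPM in sham to 3.03, 6.86 and 1.78 CPM in SBP (-2.24, SE 0.56, limma adjusted p = 0.0428, 3.18% of genes called). This cluster held 118 Tfrc UMIs over all 9 mice, and the SBP levels rest on few of them. The call was not refitted without single sham or SBP mice. The I/R mice were at 17.6, 4.23 and 3.50 CPM in this cluster, 2 of them within the SBP range, and the difference of SBP from I/R was not called (-0.77, limma adjusted p = 0.980). In the myeloid-like cluster led by Cd163 and Mrc1, Tfrc was 55.0, 60.3 and 52.8 CPM in sham, 33.6, 27.0 and 33.9 CPM in I/R and 49.3, 63.8 and 55.0 CPM in SBP. The I/R mice were below all others, although neither the difference from sham (-0.82, limma adjusted p = 0.0773) nor that of SBP from I/R (0.81, limma adjusted p = 0.812) was called. The nuclei of this cluster were mainly Hif3a/Vsig4 nuclei in I/R mice 2 and 3 and mainly Hpgd nuclei in the other mice, and the part of this makeup in the Tfrc levels was not tested.

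Cp (ENSMUSG00000003617, chr3:19956933-20009750, plus strand), ceruloplasmin, the copper ferroxidase that partners ferroportin, was at 532, 321 and 322 CPM in sham, 402, 717 and 785 CPM in I/R and 596, 374 and 389 CPM in SBP hearts. Sham mouse 1 and I/R mouse 1 overlapped. In fibroblast nuclei Cp was at 692, 353 and 353 CPM in sham and 709, 1106 and 1098 CPM in I/R, a rise that was called (1.11, SE 0.31, limma adjusted p = 0.0448). Without I/R mouse 2 it was 0.96 and not called (limma adjusted p = 0.161), and without I/R mouse 1 it was 1.29 (limma adjusted p = 0.0285). The fibroblast call of Cp was kept in 8 of 19 alternatives. It was lost with a replicate block (limma adjusted p = 0.0620), with no filter, without trended robust variances, with cell types from marker scores and in the 6 mice alone, and also without sham mouse 2 or 3, I/R mouse 3, or SBP mouse 2 or 3. The SBP levels were 750, 419 and 429 CPM, and the difference from I/R of -0.89 was not called. In cardiomyocyte nuclei all I/R mice, at 503, 534 and 762 CPM, were above all sham mice, at 360, 337 and 283 CPM (0.86, limma adjusted p = 0.101). This was called without I/R mouse 1 (0.97, limma adjusted p = 0.0295). In myeloid nuclei Cp was lowest, at 173 ± 97.1 CPM over the 9 mice, against 657 ± 296 in fibroblast, 610 ± 281 in endothelial and 487 ± 153 CPM in cardiomyocyte nuclei (SD, n = 9), and within each group the values of the last 3 overlapped. Among macrophage-like nuclei Cp was a leading gene of the Hif3a/Vsig4 subcluster, at 924 and 272 CPM in I/R mice 2 and 3 and 259 CPM in SBP mouse 1. Endothelial clusters were unequal in Cp: the Reln/Mmrn1 cluster had 1711, 1495 and 1104 CPM in sham and the Npr3 cluster 1130, 313 and 863 CPM, against 196, 97.6 and 110 CPM in the Flt1/Kdr cluster. The annotation places Hps3 over Cp on the other strand.

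**Figure D4:**
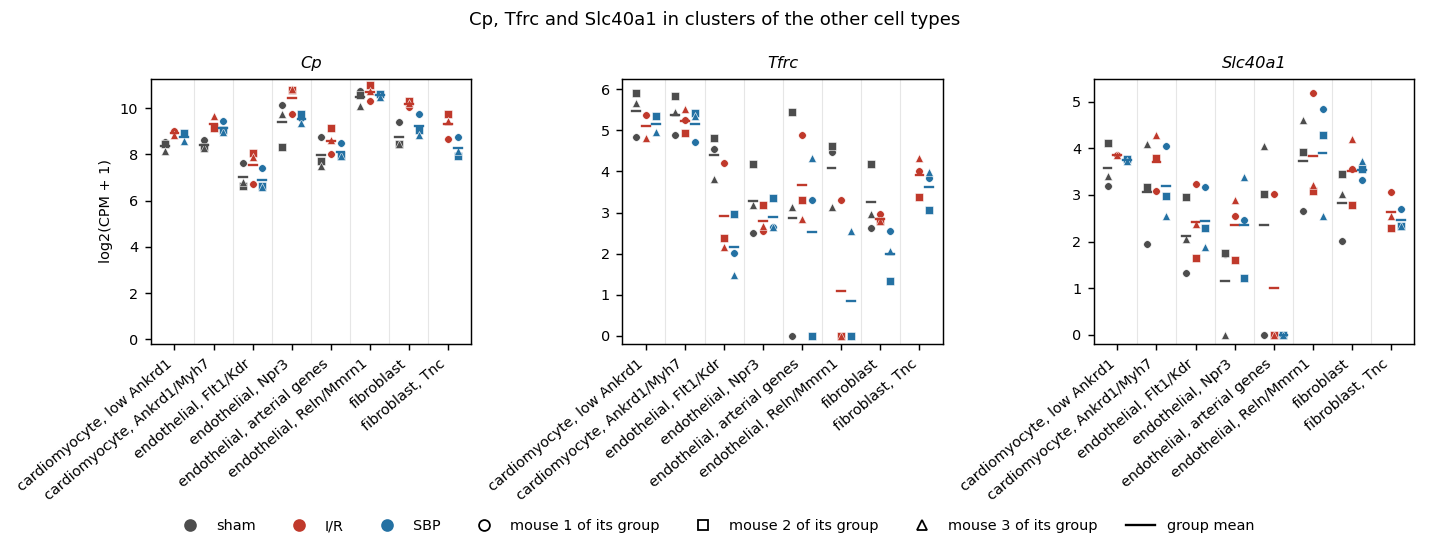
Level of Cp, Tfrc and Slc40a1 as log2(CPM + 1) in 8 clusters of cardiomyocyte-, endothelial- and fibroblast-like nuclei, with a point per mouse and the groups in colour. In the means over mice Cp is highest in the Reln/Mmrn1 and Npr3 endothelial clusters, though single Npr3 values reach down to 313 CPM. Cp is lower in the Flt1/Kdr cluster, where Tfrc of the SBP mice lies at 1.78 to 6.86 CPM, below the sham mice.

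The members of innate defence came last. Slc11a1 (ENSMUSG00000026177, chr1:74375014-74386057, plus strand), the phagosomal metal transporter also known as Nramp1, was at 195 ± 40.9 CPM in myeloid nuclei over the 9 mice, against 9.07 ± 6.60 in endothelial, 5.35 ± 3.88 in fibroblast and 2.68 ± 1.48 CPM in cardiomyocyte nuclei (SD, n = 9). In the whole heart it was 12.8, 17.0 and 14.4 CPM in sham, 48.4, 60.6 and 27.2 CPM in I/R and 32.0, 38.9 and 24.4 CPM in SBP. Its increase of 1.5 in I/R was called (95% interval 0.88 to 2.11, limma adjusted p = 0.0124), and that of 1.04 in SBP was not (limma adjusted p = 0.0668). Without sham mouse 3 the I/R call was lost (limma adjusted p = 0.0539). Within myeloid nuclei the levels were 165, 175 and 149 CPM in sham, 175, 263 and 180 CPM in I/R and 262, 187 and 201 CPM in SBP, with no call (0.32 for I/R, limma adjusted p = 0.273). All I/R mice had a larger myeloid share than all sham mice, and its part in the whole-heart increase was not tested. In fibroblast nuclei Slc11a1 was called in I/R (2.03, SE 0.37, limma adjusted p = 0.00478) and in SBP (1.5, limma adjusted p = 0.0337), from 1.33, 2.15 and 0.688 CPM in sham to 10.2, 11.9 and 4.80 CPM in I/R and 7.34, 5.31 and 4.37 CPM in SBP. The SBP call of Slc11a1 was kept in 13 of 19 alternatives and lost without sham mouse 1 or 3, without any 1 of the SBP mice and with a pseudocount of 5 CPM (0.74, limma adjusted p = 0.0718). These values are low, and the thinned share of fibroblast nuclei with a Slc11a1 UMI, 0.935% in I/R (median depth 1831 to 2124 UMIs), was below the 2.39% ± 2.19 (SD, n = 3) of T cell-like nuclei (908 to 1271 UMIs), which rests on 152 nuclei. This measure does not set the fibroblast share apart from background, and the summed myeloid markers of fibroblast nuclei went from a mean of 427 CPM in sham to 678 CPM in I/R. In the myeloid nuclei the thinned share was 15.4%, 18.0% and 19.3% in sham, I/R and SBP. The rise of Slc11a1 was not particular to fibroblast nuclei. Every I/R mouse was also above every sham mouse in endothelial (1.54, limma adjusted p = 0.0770) and cardiomyocyte nuclei (1.20, limma adjusted p = 0.0869), without a call. The means went from 3.79 to 13.9 CPM in endothelial and from 1.08 to 3.92 CPM in cardiomyocyte nuclei.

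Lcn2 (ENSMUSG00000026822, chr2:32384637-32387739, minus strand), the secreted lipocalin 2 of neutrophils and stressed tissue, was at 1.56, 0.651 and 0.567 CPM in sham, 2.22, 76.4 and 16.7 CPM in I/R and 17.0, 6.49 and 4.97 CPM in SBP hearts. I/R mouse 1 was close to sham and I/R mouse 2 far above all others. With all 9 mice the whole-heart difference of 3.13 for I/R against sham was not called (95% interval 1.06 to 5.19, limma adjusted p = 0.0570), and of the cell types the increase was called in fibroblast nuclei (3.43, SE 0.95, limma adjusted p = 0.0481). That fibroblast call of Lcn2 was kept in 8 of 18 alternatives. It was lost with a replicate block (limma adjusted p = 0.101), a pseudocount of 5 CPM and no filter, and also without any 1 of the sham mice, I/R mouse 2 or 3, or SBP mouse 2 or 3. Without I/R mouse 1 Lcn2 was called in all 5 sums, with 4.29 in the whole heart, 3.63 in cardiomyocyte, 4.66 in endothelial, 4.54 in fibroblast and 4.5 in myeloid nuclei. Without I/R mouse 2 it was not called in the 4 sums where it was still tested (in myeloid nuclei it no longer passed the filter), with 2.00 in the whole heart (limma adjusted p = 0.137) and 2.33 in fibroblast nuclei (limma adjusted p = 0.0971). The I/R values were 3.22, 134 and 28.7 CPM in endothelial, 2.92, 83.4 and 19.2 CPM in fibroblast, 1.67, 113 and 17.6 CPM in myeloid and 2.09, 33.8 and 10.7 CPM in cardiomyocyte nuclei. The same mouse was highest in every type.

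Neutrophil-like nuclei, of which I/R mice held 22, 84 and 47, had Lcn2 at 43.8, 902 and 350 CPM. The summed level of the 6 neutrophil markers moved in the same direction in other cell types: 12.9 to 42.6 CPM in sham, 114 to 404 CPM in I/R and 84.1 to 187 CPM in SBP endothelial nuclei. In fibroblast nuclei it was 10.4 to 42.6, 66.9 to 275 and 50.2 to 128 CPM, with 0 of the 6 at 0. Their part in the Lcn2 levels of those nuclei was not tested. After thinning, 4.51% of I/R endothelial nuclei (median depth 1302 to 1366 UMIs) held a Lcn2 UMI (SD 5.06), 3.08% of fibroblast (SD 3.72, 1831 to 2124 UMIs) and 1.31% of T cell-like nuclei (SD 2.26, 908 to 1271 UMIs). Each SD, over 3 mice, exceeds its mean, and mouse 2 held the highest endothelial and fibroblast shares. In the Reln/Mmrn1 endothelial cluster Lcn2 was 21.3, 9.46 and 7.78 CPM in sham, 4.42, 195 and 133 CPM in I/R and 74.1, 40.9 and 34.0 CPM in SBP mice.

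Counted over the 8 members, those called for I/R against sham were all higher in I/R. They were 4 in the whole heart (11.4% of all genes called, 5.98% higher and 5.39% lower), 2 in cardiomyocyte nuclei (0.821%, with 0.651% higher and 0.17% lower) and 2 in endothelial nuclei (3.22%, with 1.9% higher and 1.32% lower). They were 5 in fibroblast nuclei (11.7%, with 6.98% higher and 4.69% lower) and 3 in myeloid nuclei (17.7%, with 10.1% higher and 7.59% lower). The median log2 fold change of the members was 1.20, 0.95, 1.16, 1.34 and 0.92 in these sums, against -0.03, -0.03, -0.01, 0.02 and 0.09 over all genes tested. The members were chosen with earlier results of these data known, so the counts and medians of this paragraph are a description and no test of the set. For SBP against sham the called members were again all higher, with 2 in the whole heart (3.35% of all genes called, 1.63% higher and 1.73% lower), 1 in cardiomyocyte (0.139%, with 0.124% and 0.0155%), 1 in endothelial (2.17%, with 0.655% and 1.51%), 3 in fibroblast (6.05%, with 3.86% and 2.19%) and 3 in myeloid nuclei (12.6%, with 7.22% and 5.4%). Hmox1 was in each of these counts, and Ftl1 in each for I/R. Members whose I/R and sham mice did not overlap numbered 5 in the whole heart, 5 in cardiomyocyte, 4 in endothelial, 5 in fibroblast and 5 in myeloid nuclei, beside 30.7%, 16.5%, 20.8%, 27.1% and 35.7% of all genes. For SBP and sham they were 5, 5, 5, 4 and 6, beside 33%, 23.1%, 24.3%, 27.2% and 34%, of which Tfrc in endothelial and Cp in myeloid nuclei were the members with lower SBP mice.

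**Figure D5:**
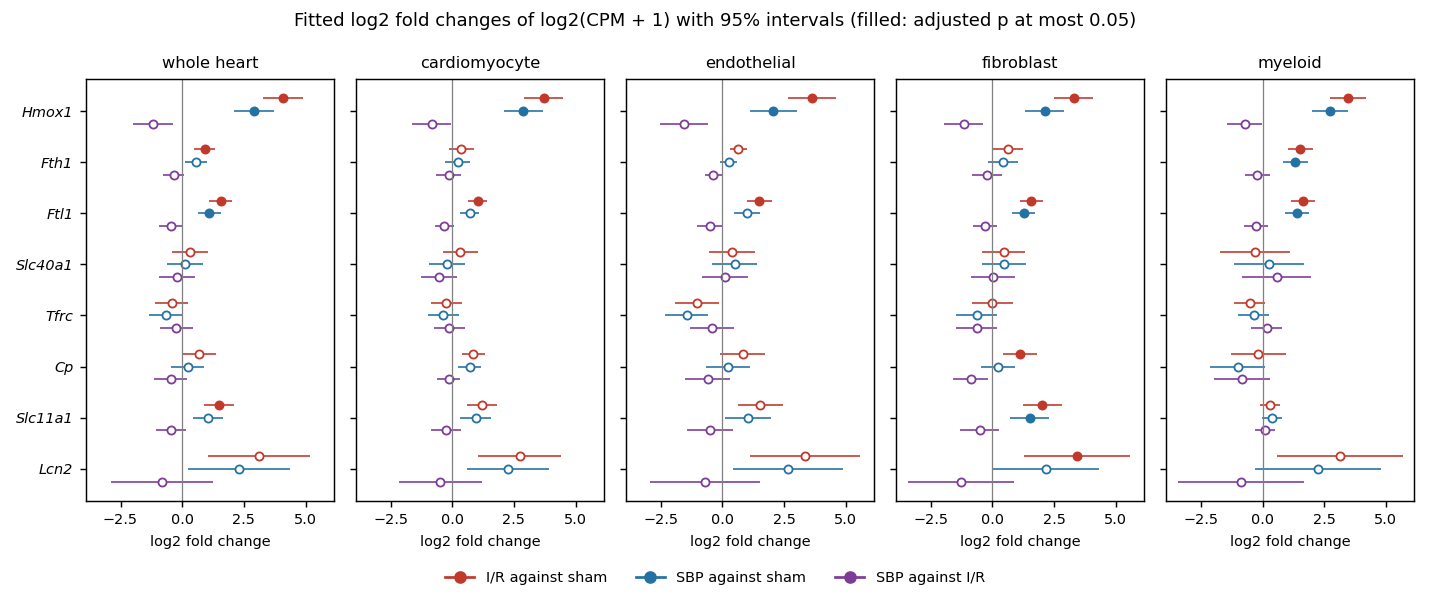
Fitted log2 fold change of the 8 genes with its 95% interval, for I/R against sham, SBP against sham and SBP against I/R, in the sum of all nuclei and in 4 cell types; filled points have a limma adjusted p of at most 0.05. The Hmox1 points for I/R against sham lie between 3.30 and 4.09, and no point of SBP against I/R is filled.

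Of a list of 53 other genes of iron and heme handling, 52 were in the tables. For I/R against sham 6 were higher and 2 lower of 47 tested in the whole heart (11.4% of all genes called), 1 and 0 of 41 in cardiomyocyte (0.821%), 3 and 0 of 43 in endothelial (3.22%), 6 and 1 of 45 in fibroblast (11.7%) and 7 and 1 of 41 in myeloid nuclei (17.7%). The median log2 fold change of the list was 0.10, 0.00, 0.03, 0.11 and 0.20. None was called for SBP against I/R. Hp, haptoglobin, which binds free hemoglobin, rose from a mean of 0.757 to 32.7 CPM in the whole heart (3.56, limma adjusted p = 0.0127), and was called in endothelial (3.64), fibroblast (4.02) and myeloid nuclei (3.55). Without I/R mouse 2 these increases were smaller, at 2.57, 2.64, 3.16 and 2.44, and without I/R mouse 1 larger, at 4.08, 4.04, 4.45 and 4.22. All of them stayed called. Slc39a14, an importer of iron not bound to transferrin, rose in fibroblast nuclei from 66.2 to 464 CPM (2.63, limma adjusted p = 0.00280), in endothelial from 59.2 to 194 CPM (1.56) and in myeloid nuclei from 45.7 to 154 CPM (1.62). Lrp1, a receptor that takes up heme bound to hemopexin among many ligands, was called in the whole heart (0.97), in cardiomyocyte (1.15), endothelial (1.15) and myeloid nuclei (1.77). Calls lost without I/R mouse 2 were those of Slc39a14 in endothelial (1.12, limma adjusted p = 0.0759) and myeloid nuclei (1.10, limma adjusted p = 0.0736) and of Lrp1 in cardiomyocyte nuclei (1.11, limma adjusted p = 0.101).

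Steap1 and Steap2 belong to the family of metalloreductases that prepare iron for import. Steap1 had 0 UMIs in sham and a mean of 4.47 CPM in I/R hearts, and 16.2 CPM in I/R fibroblast nuclei, while Steap2 rose from 9.25 to 40.8 CPM in fibroblast nuclei (2.01, limma adjusted p = 0.00201). Steap2 was also called in the whole heart (1.76, limma adjusted p = 0.00605). Fbxl5, an iron-sensing subunit that marks the iron regulatory protein 2 for destruction, went from 149 to 1041 CPM in myeloid nuclei (2.26, limma adjusted p = 0.0482). Slc48a1, which moves heme out of the phagolysosome, went from 10.7 to 24.9 CPM (1.15). Bach1, a heme-sensing repressor of Hmox1, rose in fibroblast nuclei from 46.5 to 88.3 CPM (0.89, limma adjusted p = 0.00783). Lower in I/R were Flvcr2 in the whole heart (6.53 against 15.6 CPM, -1.13), Hjv, the hemojuvelin co-receptor, in fibroblast nuclei (3.69 against 8.91 CPM, -1.06), and Bmp6, the ligand through which iron raises hepcidin in liver, in myeloid nuclei (42.5 against 84.8 CPM, -0.98). The call of Hjv was lost without I/R mouse 1 (-1.05, limma adjusted p = 0.0690) and without I/R mouse 2 (-1.22, limma adjusted p = 0.0514). Fbxl5 in myeloid nuclei was 1.42 higher without I/R mouse 2 and 2.96 without I/R mouse 1, both called. In the whole heart Fbxl5 was called as well (1.68, limma adjusted p = 0.0495), and stayed called at 0.97 without I/R mouse 2 and 2.12 without I/R mouse 1.

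The likeness of patterns was measured as Pearson's r of log2(CPM + 1) over 36 sums, 4 cell types in 9 mice, among 14783 genes. These sums share libraries and depth, so r is a description. It also mixes differences of level between the cell types with those between mice and groups, which were not separated. Hmox1 was most like Lgals3 (0.931), Ftl1 (0.919) and Clec4d (0.915). Ftl1 was most like Grn (0.932), Lgals3 (0.924) and Pfn1 (0.921), and Fth1 most like Ranbp2 (0.948), Plaur (0.943) and Eif5b (0.928). Slc11a1 followed Lilr4b (0.988), Psd4 (0.986) and Cyth4 (0.983), Tfrc followed Nup210 (0.939), Plbd1 (0.912) and Slc16a10 (0.904), and Lcn2 followed Chil3 (0.874), S100a8 (0.868) and Saa3 (0.850). Cp was most like Synpo (0.865), Col4a2 (0.857) and Adarb1 (0.845), and Slc40a1 most like N4bp2l1 (0.842), Akr1b10 (0.838) and Fam234a (0.835). Among the members themselves Fth1 and Ftl1 reached 0.834 and Hmox1 and Fth1 0.703, whereas Slc40a1 and Cp ran opposite (-0.704). Of the 4 types, myeloid nuclei had the highest mean level of Slc40a1 and the lowest of Cp.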

How the data were processed

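Heart nuclei of 9 mice, 3 per group, were profiled by 10x single-nucleus RNA-seq, each library being labelled as 1 mouse. The values deposited by the authors were natural log values, and the files show that each nucleus had been scaled to a total of 10000 and 1 added before the logarithm. The submitters' processing notes name Cell Ranger 4.0, STAR, Seurat 3.2.0 and the GRCm38 build. Whole UMIs were recovered by undoing this scaling, with at least 99.9% of values within 0.1 of a whole number, and summed per mouse over all nuclei, cell types, clusters and myeloid subclusters with at least 20 nuclei. The files hold 49171 nuclei, fewer than the study states after its quality control, and the lowest had 405 genes. Libraries held 10329520 to 18205984 UMIs and shared 290 barcodes (0.593%). A doublet caller marked 85 nuclei, which were removed, but this share is too low to take the caller as having worked. Nuclei were clustered with scanpy 1.11.5 and igraph 0.11.9 (2000 variable genes without the members, 30 principal components, resolution 0.5, and 0.4 within myeloid nuclei), and a cluster was named from at least 3 detected markers. Rebuilt names may differ from those of the study.

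Sums were scaled by TMM, and log2(CPM + 1) was fitted in limma 3.58.1 (R 4.3.3) with trended robust variances over all 9 mice, without a block, for genes passing a filter of 10 UMIs in 3 samples at the sum's depth and 15 UMIs in all. A fold change on this scale understates the change of low genes. Differences between cell types were fitted per mouse. Promoter windows and gene positions came from RefSeq on GRCm38.p6. Shares were taken at 1000 UMIs per nucleus, which leaves out 15.0%, 10.1% and 11.2% of sham, I/R and SBP nuclei. Levels between cell types were described without a test, since clusters come from the same nuclei. All 8 members are named in every sum, and of the other iron genes up to 6 called genes per sum with the largest fold change. On simulated data, 94.5% to 99.0% of genes changed by a log2 fold of 2, up or down, were recovered in the contrasts with sham. Each such fit also gave 5 to 17 false calls. The simulation gave every gene the same set spread, with no outlying mouse and no change of makeup, so it does not give the power in these data. No change was simulated for SBP against I/R. The members, gene lists and tests were chosen with earlier results of these data known. Alternatives covered the pseudocount, filter, scaling, variance model, cell typing, doublets, the samples in the fit, leaving out each mouse, and the replicate numbers as a block. Python 3.11.15, numpy 2.4.6, pandas 2.3.3 and scipy 1.17.1 were used.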

Additional observations from a re-analysis of the deposited data

Results flagged for a closer look

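In 2 cases the response of a member differed between cell types of the same mice, by limma on the difference within each mouse, out of 144 such tests of members (8 genes, 6 pairs of cell types and 3 contrasts). Over all genes the share called in these comparisons ran from 0% to 7.04%, and 2 of 144 does not stand out from that range. The increase of Slc11a1 in I/R over sham was larger in fibroblast than in myeloid nuclei by 1.71 on the log2 scale (SE 0.28, 95% interval 1.09 to 2.33, limma adjusted p = 0.00806), in a comparison where 7.04% of all genes were called. It held under each alternative run, between 0.79 and 2.00, while the fibroblast levels were low, at 11 UMIs in sham and 104 UMIs in I/R. Slc11a1 was also higher in I/R than in sham in endothelial (1.54) and cardiomyocyte nuclei (1.20), neither called. The increase in cardiomyocyte nuclei exceeded that in myeloid nuclei by 0.89, which was not called (limma adjusted p = 0.0716). The share of I/R fibroblast nuclei with a Slc11a1 UMI (0.935%) was below that of T cell-like nuclei (2.39%), the summed myeloid markers of fibroblast nuclei went from a mean of 427 CPM in sham to 678 CPM in I/R, and the part of myeloid RNA in this difference was not tested. The response of Fth1 in SBP over sham was smaller in endothelial than in myeloid nuclei by a log2 difference of -1.06 (SE 0.23, limma adjusted p = 0.0486, 2.53% of all genes called), and it was not called without any 1 of the sham or SBP mice or with no scaling factor. Groups of 3 mice were not tested for an outlying mouse.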

How the results depend on the processing

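Of 26 called member results, 16 kept their call under every alternative and 20 under every alternative with all 9 mice, and 0 reversed. The share of all genes called was not recorded for the refits below. A changed count of members therefore cannot be set against the change over all genes. For I/R against sham, leaving out 1 mouse gave 2 to 6 members called in the whole heart (4 with all mice, 2 without sham mouse 3), 1 to 4 in cardiomyocyte (2) and 1 to 5 in endothelial nuclei (2), the highest without I/R mouse 1, and 3 to 5 in fibroblast nuclei (5). For SBP against sham it gave 1 to 3 in the whole heart (2), 0 to 2 in cardiomyocyte (1) and 0 to 4 in endothelial nuclei (1). Fitting the 6 compared mice alone gave 4 in the whole heart, 3 in cardiomyocyte and 4 in endothelial nuclei for SBP against sham, and 1 in cardiomyocyte and 3 in fibroblast nuclei for I/R against sham. For SBP against sham, a pseudocount of 5 CPM gave 0 in cardiomyocyte and 0 in endothelial nuclei, where no filter gave 2, cell types from marker scores 2 and limma without trend and robust variances 0. In fibroblast nuclei no filter gave 3 for I/R against sham. Sums of at least 50 nuclei gave 1 call for SBP against sham in the Ankrd1/Myh7 cardiomyocyte cluster, against 0. In alternatives chosen after seeing the data, 23 of 27 calls of the other iron genes for I/R against sham were kept without I/R mouse 1 and 19 of 27 without I/R mouse 2. Of the members' calls within clusters and subclusters, 16 rested on 3 I/R mice. Of these, 16 of 16 were kept without I/R mouse 1 and 7 of 16 without I/R mouse 2. The other calls were Hmox1 in the low-Ankrd1 cluster and Hmox1 and Ftl1 in Hpgd macrophage-like nuclei. They rested on I/R mice 1 and 3, so leaving out mouse 1 left a lone I/R mouse and no measure of spread in I/R. The causes were not tested. SBP against I/R gave 0 calls throughout.

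Over the 5 sums the deviations of same-numbered mice correlated at -0.399 to 0.296. Those of the mice numbered 3 were all positive (0.026 to 0.296) and those of the mice numbered 1 and 2 of both signs, so the numbers were not taken as pairs. With a replicate block 3 members were called in fibroblast nuclei for I/R against sham, where Cp and Lcn2 were lost, and 0 in endothelial nuclei for SBP against sham, where Hmox1 was lost, and the other counts for the whole heart and the 4 cell types were equal to those without the block. The whole-heart count of 2 for SBP against sham did not hold the same genes, as Ftl1 was lost (limma adjusted p = 0.0664) and Slc11a1 gained (limma adjusted p = 0.0476). Precision is limited by 3 mice per group, and in sham by 94 Hmox1 and 33 Lcn2 UMIs in all.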
